A study of Mus musculus with 8 samples.

Results

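The smooth muscle contractile genes were followed in RNA sequencing libraries of mouse embryonic fibroblasts (MEFs), connective tissue cells grown out of embryos. They are 10 genes chosen by symbol: the actins Acta2, Acta1 and Actg2, the calponin family genes Tagln, Cnn1 and Cnn2, the tropomyosins Tpm1 and Tpm2, the caldesmon gene Cald1 and the myosin light chain gene Myl9. All 10 had a row in the deposited table of 12211 genes, and all 10 were among the 11909 genes with enough counts to be tested. There were 4 libraries of MEFs labelled PUS10 KO and 4 of control MEFs labelled WT, numbered 1 to 4 in each genotype and grown in the same serum medium. PUS10 belongs to the enzymes that turn uridine of RNA into pseudouridine. The labels name no sex, clone, passage or embryo for either genotype, nor the part of Pus10 that was targeted. Whether a library stands for a culture of its own is likewise unstated, so the p-values measure the spread between libraries, which may be partly technical.

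Smooth muscle shortens when myosin pulls on actin filaments that are coated with tropomyosin, caldesmon and calponin. Contraction is switched on by phosphorylation of the regulatory light chain of myosin, and myosin phosphatase ends it by taking the phosphate off again. The same genes are transcribed in activated fibroblasts, the myofibroblasts of healing wounds, whose usual marker is the product of Acta2. Many of them are targets of serum response factor (SRF), which binds a DNA element called the CArG box, and of its actin-sensing cofactors, the myocardin-related factors.

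Total counts ran from 17561114 to 24563499 per PUS10KO library and from 18850689 to 23217332 per control library. The first principal component of log2 CPM over the 8 libraries held 56.1% of the variance, and the second component held 26.1%. Pus10 itself averaged 13.8 ± 1.60 CPM in PUS10KO and 46.1 ± 6.46 CPM in control (SD, n = 4 each, as in all means that follow), a log2 fold change of -1.74 (SE 0.15, adjusted p = 0.000189 by edgeR). CPM values are counts scaled to the library total after TMM, a normalization by trimmed means. The genotypes differed in a second way: the Y-linked genes Eif2s3y, Uty and Kdm5d reached 5989, 4579 and 4605 counts in the PUS10KO libraries together, against 0, 1 and 2 counts in the control libraries together. Genotype and Y-linked transcription therefore cannot be told apart in any comparison below. Of the 12 fibroblast markers examined all were among the tested genes, with Vim at 4610 ± 219 CPM in PUS10KO and 6760 ± 642 CPM in control, and Col1a2 at 2990 ± 803 CPM in PUS10KO and 5110 ± 712 CPM in control. Thy1, a surface protein of many fibroblasts, was at 0 to 0.0551 CPM in the PUS10KO libraries and at 20.8 to 23.0 CPM in the control libraries.

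The DNA just before the start sites was examined for the CArG box, which is CC, 6 bases of A or T, and GG, and which reads the same in form on both strands. RefSeq promoter windows of GRCm38.p6 were matched for 8 of the 10 members (9 windows, with a pair for Cald1), and the 250 bases before each start were searched. Actg2 and Tagln had no matched window, so they were not searched. An exact box lay in the windows of 3 members, Acta1, Cnn2 and Myl9, and in 482 of 32851 windows of all genes (1.47%). Acta2 came in when 1 C or G was allowed among the 6 core bases, a looser form chosen after the exact boxes had been seen; 4 members and 2823 windows of all genes (8.59%) then held one. Boxes are in capitals below, exact or with 1 C or G in the core, and the stretches are shown because these genes include 2 of the 3 members with the largest differences between genotypes. All are read 5′ to 3′ on the strand of the gene. The pair of 30-base stretches of Acta2, on the minus strand at chr19:34255438-34255467 and chr19:34255388-34255417, lies before the RefSeq start but within the first exon of the GENCODE M21 transcript. Acta1 is given on the minus strand at chr8:123894776-123894995, Cnn2 on the plus strand at chr10:79988464-79988583, and Myl9 on the plus strand at chr2:156775250-156775419, each without bases that GENCODE M21 places in an exon.
Acta2 upper box: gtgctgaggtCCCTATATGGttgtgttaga
Acta2 lower box: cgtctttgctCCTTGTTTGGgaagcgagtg
Acta1: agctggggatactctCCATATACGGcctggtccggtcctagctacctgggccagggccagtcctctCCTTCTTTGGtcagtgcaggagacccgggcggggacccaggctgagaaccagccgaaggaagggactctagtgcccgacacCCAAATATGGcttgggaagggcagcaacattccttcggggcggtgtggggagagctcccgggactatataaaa
Cnn2: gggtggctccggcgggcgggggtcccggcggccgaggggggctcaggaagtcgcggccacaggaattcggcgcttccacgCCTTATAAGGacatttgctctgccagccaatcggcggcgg
Myl9: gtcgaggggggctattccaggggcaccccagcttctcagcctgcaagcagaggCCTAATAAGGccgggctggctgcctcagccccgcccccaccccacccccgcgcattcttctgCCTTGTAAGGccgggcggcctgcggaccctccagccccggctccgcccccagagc
Counted from the end of the box to the start site, the exact boxes lay 63 bases before Acta1, 46 before Cnn2 and 151 before Myl9, and the boxes of Acta2 with 1 C or G lay 74 and 24 bases before it. A match of letters is a description of the window and not evidence of binding in these cells.

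Taken by genotype, the 10 genes did not move as one. Acta2, Acta1 and Tagln fell in PUS10KO, and the other 7 did not pass the test, of which 5 had lower means and 2, Actg2 and Cnn1, had higher means in PUS10KO. Calls come from edgeR's quasi-likelihood test at an adjusted p under 0.05, with p-values adjusted by Benjamini-Hochberg over the 11909 genes. Over all genes tested 7.11% fell and 5.9% rose by it. The median log2 fold change was -0.87 over the 10 members and 0.01 over all genes. With the library number as a block, which takes differences between numbers out of the error, 7 members fell, Actg2 and Cnn1 rose and Tpm2 did not pass; in that fit 19.9% of all genes fell and 19.1% rose. At an unadjusted p under 0.05 without the block, 7 members were lower and 1, Cnn1, was higher, where 13.8% of all genes were lower and 12.4% higher.

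**Figure D1:**
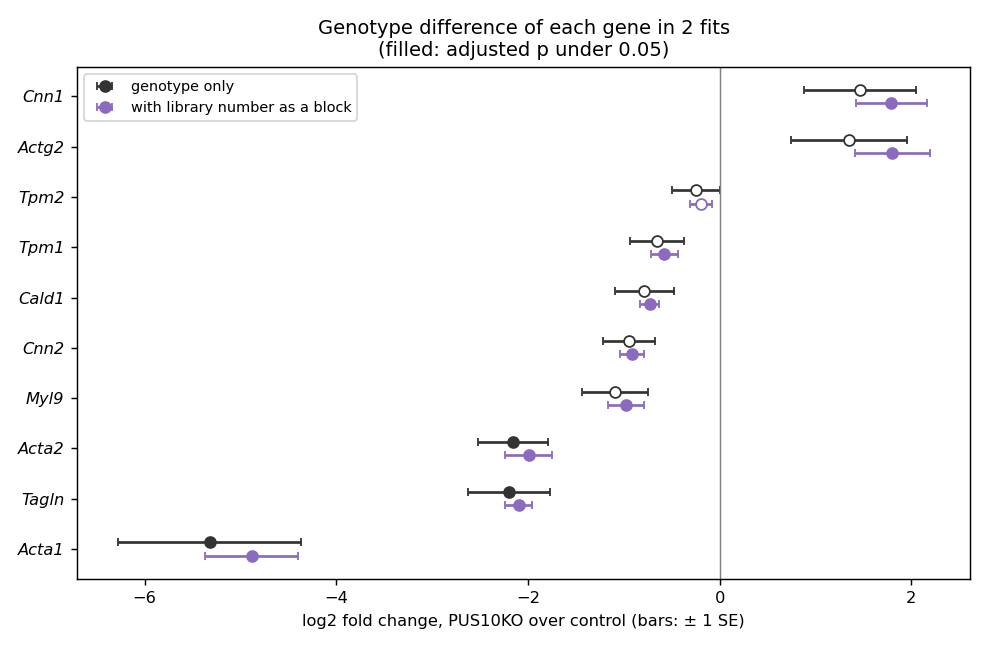
Log2 fold change of each member, PUS10KO over control (x axis, bars are 1 SE on each side), in the fit with genotype only (black) and in the fit with the library number as a block (purple). Filled points had an adjusted p under 0.05: Acta2, Acta1 and Tagln in both fits, and all members except Tpm2 in the fit with the block.

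Summed over the members, the transcripts amounted to 10270, 8729, 7353 and 7394 CPM in PUS10KO libraries 1 to 4, against 31870, 30450, 13970 and 12390 CPM in control libraries 1 to 4. As a share of all counts this was 0.778% to 1.03% in PUS10KO and 1.26% to 2.82% in control. The groups did not overlap, and control libraries 1 and 2 stood far above the other 6. In such bulk samples, fewer contractile cells and less RNA per cell cannot be told apart.

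The actins form the thin filament. Acta2 and Acta1 fell, while Actg2 had a higher mean in PUS10KO and passed with the block alone. Acta2 (ENSMUSG00000035783.9, chromosome 19, 34241090 to 34255590, minus strand, GRCm38) encodes the vascular smooth muscle actin, known as alpha smooth muscle actin. It had 2466, 2238, 2212 and 2077 CPM in PUS10KO libraries 1 to 4, against 14070, 14960, 6166 and 4904 CPM in control libraries 1 to 4. Every PUS10KO library lay below every control library. The PUS10KO libraries were close to each other, with a coefficient of variation of 7.17%, against 52.1% among control libraries. Acta2 fell 4.46-fold (log2 fold change -2.16, SE 0.365, adjusted p = 0.00528), and it was called in each of the 8 fits made without 1 library (-2.37 to -1.90).

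Acta1 (ENSMUSG00000031972.5, chromosome 8, 123891769 to 123894751, minus strand), the actin of skeletal muscle, was a minor transcript in both genotypes and had the largest relative fall of the members. It had 2.37, 0.637, 1.44 and 1.14 CPM in PUS10KO libraries 1 to 4, from 43, 16, 34 and 21 counts, against 150.7, 43.5, 17.9 and 8.62 CPM in control libraries 1 to 4, from 3096, 794, 347 and 180 counts. The genotypes did not overlap, and the control libraries spanned a range of 17.5-fold. Acta1 fell 40.0-fold (log2 fold change -5.32, SE 0.958, adjusted p = 0.00716). Control library 1 carried much of that size: without it the log2 fold change was -4.06 (adjusted p = 0.00572). The call was lost with limma voom (adjusted p = 0.0569). In the blocked fit of the authors' normalized values the log2 difference was smaller, -2.87 (adjusted p = 0.00196).

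Actg2 (ENSMUSG00000059430.14, chromosome 6, 83512905 to 83536265, minus strand), the actin of gut and other visceral smooth muscle, stood on the other side. It had 343.3, 280.7, 239.4 and 193.8 CPM in PUS10KO libraries 1 to 4, against 166.7, 184.3, 40.5 and 22.5 CPM in control libraries 1 to 4. All PUS10KO libraries were above all control libraries, though PUS10KO 4 was close to control 2. The log2 fold change of 1.35 (SE 0.606) had an adjusted p of 0.197 without the block, and 1.80 (SE 0.391) had an adjusted p of 0.00777 with it. Per kilobase of exon, Actg2 made up 11.6% to 16.4% of the summed CPM of the 3 actins in PUS10KO and 0.641% to 1.70% in control. Acta2 made up 83.5% to 88.3% in PUS10KO and 96.9% to 99.1% in control, and Acta1 at most 0.115% in PUS10KO and 1.48% in control.

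The 3 actins are close relatives, which bears on whether their reads can be told apart. Lined up from the last coding base, the coding sequences of GENCODE M21 were identical at 85.4% of bases between Acta2 and Acta1, 83.8% between Acta2 and Actg2 and 84.8% between Acta1 and Actg2. The last 60 coding bases, before the stop codon, are shown to make the spacing of the differences visible, with the 14 positions at which the 3 genes are not all alike in capitals. They come from exon 9 of Acta2 (chr19:34241670-34241729), exon 7 of Acta1 (chr8:123892012-123892071) and exon 9 of Actg2 (chr6:83512988-83513047), all on the minus strand of GRCm38.
Acta2: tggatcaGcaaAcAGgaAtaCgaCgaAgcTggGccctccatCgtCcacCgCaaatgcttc
Acta1: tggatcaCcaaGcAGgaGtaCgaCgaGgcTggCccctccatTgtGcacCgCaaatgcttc
Actg2: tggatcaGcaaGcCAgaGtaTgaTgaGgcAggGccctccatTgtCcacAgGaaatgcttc
Of all words of 50 bases in the longest transcript of each member, 7 of 1986 in Acta2 (0.352%) and 31 of 1397 in Acta1 (2.22%) also occurred in a transcript of another gene, mainly Actb, Actg1 and actin pseudogenes. None of the words of the other 8 members did. The sources used here do not say how the authors treated reads with several matches, so over these words the gene of origin cannot be told apart.

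**Figure D2:**
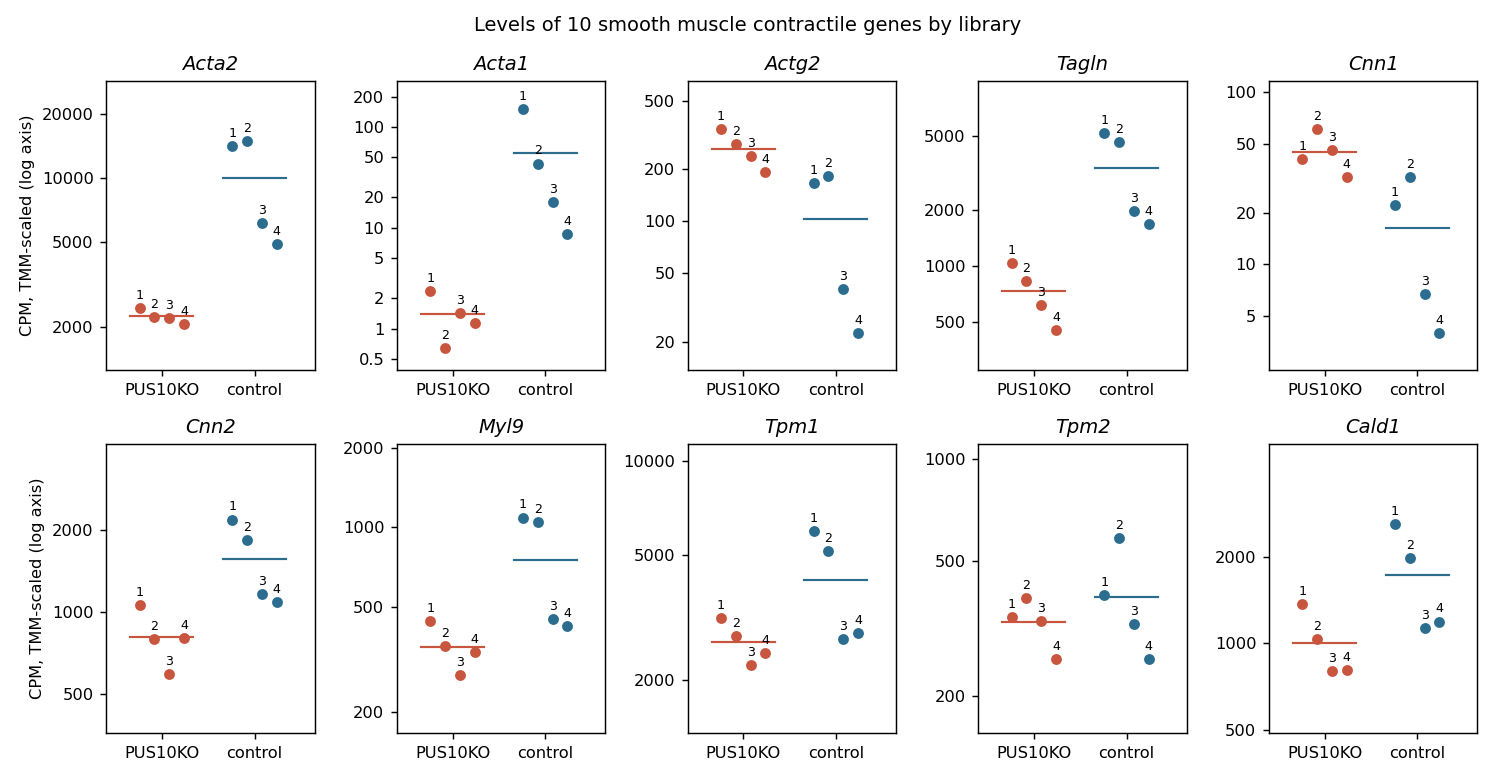
CPM of each member in each library on a log axis (TMM-scaled; range set for each panel), PUS10KO in red and control in blue, with the library number above each point and the group mean as a line. Acta2, Acta1, Tagln and Cnn2 were lower in every PUS10KO library than in every control library, Actg2 was higher in every one, and control libraries 1 and 2 were above control libraries 3 and 4 for all 10 genes.

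The calponin family binds along actin filaments, and its members were also split. Tagln (ENSMUSG00000032085.5, chromosome 9, 45929619 to 45936058, minus strand) encodes transgelin, an early marker of smooth muscle differentiation. It had 1035, 827.4, 616.7 and 452.9 CPM in PUS10KO libraries 1 to 4, against 5198, 4618, 1984 and 1672 CPM in control libraries 1 to 4. The genotypes did not overlap. Tagln fell 4.59-fold (log2 fold change -2.20, SE 0.427, adjusted p = 0.0102), with -2.41 to -1.90 in the 8 fits that left out 1 library, all called. Its exons overlap Pcsk7 on the opposite strand; Pcsk7, a proprotein convertase gene, had 38.1 to 64.6 CPM in PUS10KO and 48.3 to 55.0 CPM in control, far below the level of Tagln in every library.

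Cnn1 (ENSMUSG00000001349.5, chromosome 9, 22099216 to 22109630, plus strand) encodes basic calponin, the form typical of mature smooth muscle. It had 40.6, 60.9, 46.0 and 32.2 CPM in PUS10KO libraries 1 to 4, against 22.2, 32.2, 6.75 and 4.02 CPM in control libraries 1 to 4. The genotypes touched, since PUS10KO 4 lay just under control 2. Its log2 fold change was 1.47 (SE 0.58, adjusted p = 0.146) without the block and 1.79 (SE 0.367, adjusted p = 0.00597) with it. Cnn1 and Actg2 thus had the same direction, against the rest of the members.

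Cnn2 (ENSMUSG00000004665.10, chromosome 10, 79988584 to 79996062, plus strand) encodes the calponin found in many cells besides muscle. It had 1065, 793.0, 592.8 and 800.9 CPM in PUS10KO libraries 1 to 4, against 2189, 1839, 1162 and 1087 CPM in control libraries 1 to 4. The genotypes did not overlap, although PUS10KO 1 was just below control 4. The log2 fold change of -0.95 (SE 0.27) lay at the edge of the threshold, with an adjusted p of 0.0503 without the block and 0.000793 with it. Leaving out PUS10KO 1 or control 4 called it (adjusted p = 0.0439 and 0.0375), and the other 6 such fits did not (up to 0.13). It was also called with upper-quartile factors (adjusted p = 0.0345), with no filter on low counts (0.0485) and by DESeq2 (0.00673), and not by limma voom (0.0548).

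Tropomyosin lies in the groove of the actin filament and governs access of myosin, and caldesmon holds the filament in the resting state. Tpm1 (ENSMUSG00000032366.15, chromosome 9, 67022590 to 67049406, minus strand) had 3158, 2752, 2232 and 2435 CPM in PUS10KO libraries 1 to 4, against 5968, 5162, 2690 and 2817 CPM in control libraries 1 to 4. The ranges overlapped, because control libraries 3 and 4 lay within the PUS10KO range. Its log2 fold change was -0.65 (SE 0.281, adjusted p = 0.179) without the block and -0.58 (SE 0.139, adjusted p = 0.0124) with it. Cald1 (ENSMUSG00000029761.16, chromosome 6, 34598500 to 34775473, plus strand) had 1375, 1033, 804.0 and 807.5 CPM in PUS10KO libraries 1 to 4, against 2616, 1981, 1131 and 1192 CPM in control libraries 1 to 4. Only PUS10KO 1 reached into the control range. Its log2 fold change was -0.78 (SE 0.305, adjusted p = 0.141) without the block and -0.73 (SE 0.102, adjusted p = 0.000889) with it. Tpm2 (ENSMUSG00000028464.16, chromosome 4, 43514711 to 43523765, minus strand) had 340.9, 386.8, 332.8 and 256.2 CPM in PUS10KO libraries 1 to 4, against 395.9, 582.0, 324.2 and 257.2 CPM in control libraries 1 to 4. It was the member with the smallest difference, and nearly the whole PUS10KO range lay inside the control range (log2 fold change -0.24, SE 0.249, adjusted p = 0.592, and 0.204 with the block). Both tropomyosin genes and Cald1 give rise to muscle and nonmuscle isoforms, which counts per gene do not separate.

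Myl9 (ENSMUSG00000067818.6, chromosome 2, 156775420 to 156781658, plus strand) encodes the regulatory light chain of smooth muscle myosin, the subunit whose phosphorylation starts contraction. It had 441.4, 356.8, 276.1 and 337.1 CPM in PUS10KO libraries 1 to 4, against 1090, 1049, 449.2 and 423.8 CPM in control libraries 1 to 4. The genotypes overlapped only through PUS10KO 1, which was above control 4 and below control 3. Its log2 fold change was -1.09 (SE 0.341, adjusted p = 0.0698) without the block and -0.97 (SE 0.187, adjusted p = 0.0044) with it. It was called without control 3 (adjusted p = 0.0479) or control 4 (0.0364), and not in the other 6 fits that left out 1 library (up to 0.17). Across the 10 members, 4 had every PUS10KO library below every control library (Acta2, Acta1, Tagln and Cnn2), where 10.6% of all genes did, and 1, Actg2, had every one above, where 9.7% did.

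The size of the difference varied with the library number. For all 10 members the log2 difference, PUS10KO minus control of the same number, was on average lower for numbers 1 and 2 than for numbers 3 and 4, a pattern that was known when the members were chosen and is given as a description. For Acta2 the log2 differences of CPM were -2.51, -2.74, -1.48 and -1.24 for numbers 1 to 4. For Acta1 they were -5.99, -6.09, -3.64 and -2.92. For Tagln they were -2.33, -2.48, -1.69 and -1.88, the narrowest spread of the 3 genes that fell. The 2 members with higher means ran the same way with the sign changed, so that their excess in PUS10KO was greater for numbers 3 and 4. Actg2 had 1.04, 0.61, 2.56 and 3.11, and Cnn1 had 0.87, 0.92, 2.77 and 3.00. In all, 7 members were lower in PUS10KO for all 4 numbers, where 26.9% of all genes were, and 2 were higher for all 4, where 28.4% were, while Tpm2 had -0.22, -0.59, 0.04 and -0.01. Over all genes with counts in every library, the medians of these differences were 0.02, 0.00, 0.00 and 0.02.

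**Figure D3:**
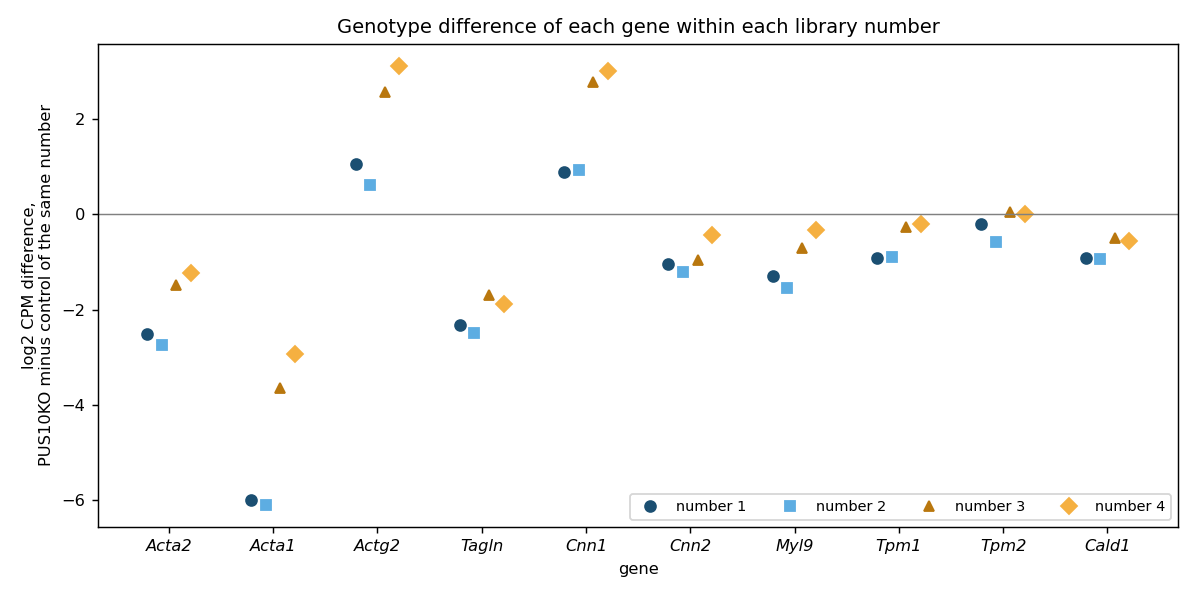
Log2 CPM of PUS10KO minus log2 CPM of control for each member (y axis) within each library number (numbers 1 and 2 in blue, 3 and 4 in orange). For every member both blue points lie below both orange ones. Tpm2 lies near 0.

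For all 10 members, numbers 1 and 2 differed from 3 and 4 more in control than in PUS10KO, by a margin that varied with the gene. In control, both libraries 1 and 2 were above both libraries 3 and 4 for all 10 members, where 28.9% of all tested genes had that order. In PUS10KO, 7 of 10 members had it, where 33.7% of all genes did. Since the members were chosen with earlier results of these data known, these shares are a description and not a test. As a ratio of mean log2 CPM turned back to a fold, numbers 1 and 2 over 3 and 4, Acta2 was at 1.10 in PUS10KO and 2.64 in control, and Acta1 at 0.961 in PUS10KO and 6.52 in control. Actg2 was at 1.44 in PUS10KO and 5.81 in control, and Cnn1 at 1.29 in PUS10KO and 5.13 in control. Myl9 was at 1.30 in PUS10KO and 2.45 in control, and Tpm1 at 1.26 in PUS10KO and 2.02 in control. The genotypes were closer for Cald1 (1.48 in PUS10KO, 1.96 in control), Cnn2 (1.33 and 1.78) and Tpm2 (1.24 and 1.66). Of the 3 genes that fell, Tagln was nearest to equal between genotypes in this ratio, at 1.75 in PUS10KO and 2.69 in control. The labels do not say what the number stands for, and the difference between numbers was not tested.

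Levels of different genes were compared as CPM per kilobase of exon. In PUS10KO, Acta2 was highest (1024 ± 73.5), and Tpm1 (408), Tagln (369), Cnn2 (330) and Myl9 (304) followed with neighbours that did not differ beyond their spread. Below them came Actg2 (170), Tpm2 (113), Cald1 (83.5), Cnn1 (16.4) and Acta1 (0.908), each apart from the next by more than the larger SD. In control, Acta2 (4565 ± 2378) led Tagln (1694 ± 905), and Myl9 (648), Tpm1 (641) and Cnn2 (638) formed 1 group. Cald1 (144) and Tpm2 (134) were alike within their spread, as were Actg2 (66.5), Acta1 (35.9) and Cnn1 (5.95), from each to the next. Actg2 thus stood above Tpm2 and Cald1 in PUS10KO and below them in control. With the length of the longest transcript instead, Tpm1 and Cald1 were higher per kilobase (915 and 210 in PUS10KO, 1439 and 362 in control), which put Cald1 above Actg2 in PUS10KO. By both lengths Tagln stood above Tpm1 in control and below it in PUS10KO. Whether the gap exceeded the spread depended on the length used. By exon length Tagln was above Tpm1 beyond the spread in control, and below Tpm1 within the spread in PUS10KO. By longest transcript Tpm1 stood above Tagln (460) beyond the spread in PUS10KO, and Tagln (2112 ± 1128) above Tpm1 within it in control.

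Profiles over the 8 libraries were compared by the root mean square difference of mean-centred log2 CPM, as a description of libraries that share genotype and number. The closest pair of members was Tpm1 and Cald1 (0.136), then Cnn2 and Cald1 (0.169) and Cnn2 and Myl9 (0.178). Actg2 was within 0.264 of Cnn1, and Acta2 within 0.273 of Tagln. Among 10596 genes of sufficient level (mean log2 CPM of 1 or more), the 5 outside the members that lay closest to Acta2 were Hspb1, a small heat shock protein that binds actin (0.269), Itga8, an integrin subunit of mesenchymal cells (0.292), C1ql3, a secreted C1q-like protein (0.293), Ubash3b, a tyrosine phosphatase (0.308), and Jam2, a junctional adhesion molecule (0.315). Hspb1 had 35.1, 30.2, 27.0 and 26.0 CPM in PUS10KO libraries 1 to 4, against 184, 119, 59.3 and 51.6 CPM in control libraries 1 to 4. Since these genes were picked for a profile like that of Acta2, their direction follows from the choice.

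Among other genes of the smooth muscle cytoskeleton, falls outnumbered rises. Of 24 such genes tested, 7 fell and 2 rose, with a median log2 fold change of -0.57. With the block 13 fell and 5 rose. Over all genes 7.11% fell and 5.9% rose, and with the block 19.9% fell and 19.1% rose. Myh11, the smooth muscle myosin heavy chain, had 0.386, 0.557, 0.591 and 0.325 CPM in PUS10KO libraries 1 to 4, against 14.4, 65.3, 5.77 and 3.50 CPM in control libraries 1 to 4. The genotypes were far apart, and control 2 alone held most of the control signal (log2 fold change -5.54, SE 1.02, adjusted p = 0.00786). Fhl1, a LIM-domain protein of muscle, averaged 69.5 ± 15.9 CPM in PUS10KO and 545 ± 435 CPM in control (log2 fold change -2.97, adjusted p = 0.00974). Ppp1r12b, a targeting subunit of myosin phosphatase, rose, with 64.8 ± 8.38 CPM in PUS10KO and 31.3 ± 4.87 CPM in control (1.05, adjusted p = 0.00275). Pgm5, a protein of actin adhesion sites in muscle, also rose, with 15.0 ± 7.03 CPM in PUS10KO and 0.51 ± 0.408 CPM in control (4.85, adjusted p = 0.000937). Of 23 nonmuscle actin, myosin and tropomyosin genes tested, 2 fell, with a median of -0.34, and with the block 12 fell. Those called without the block were the light chains Myl6 (log2 fold change -0.77, adjusted p = 0.0165) and Myl12a (-0.74, adjusted p = 0.0194). Actb, the cytoplasmic actin used as a reference in many studies, was looked up after its values had been seen; it had 8400 to 15800 CPM in PUS10KO and 8150 to 18300 CPM in control (-0.25, adjusted p = 0.69, and 0.126 with the block).

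**Figure D4:**
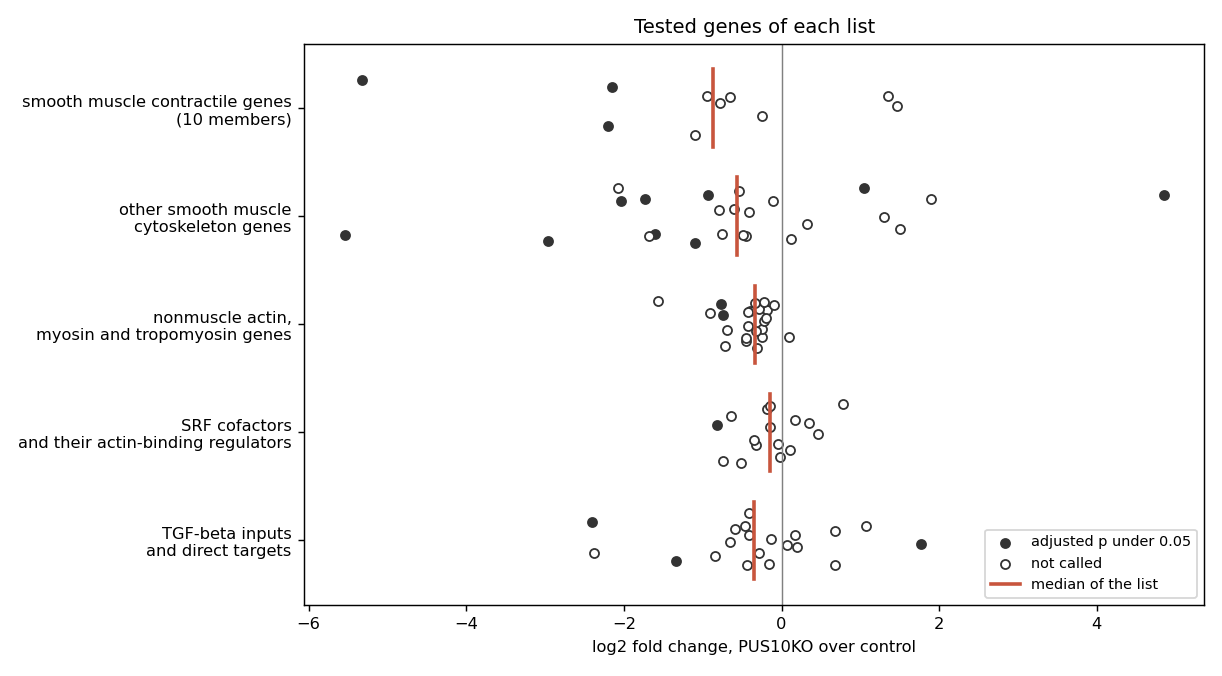
Log2 fold change, PUS10KO over control, of each tested gene in the member list and in 4 related lists (filled points, adjusted p under 0.05; red bar, median of the list). The member median was -0.87 and the medians of the other lists lay between -0.57 and -0.15, while that of all genes was 0.01.

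Among SRF cofactor genes and other regulators of contractile genes, the shares that fell and rose without the block were no higher than those of all genes. By the same test 7.11% of all genes fell and 5.9% rose. Of 16 tested SRF cofactor genes and regulators 1 fell, Prrx1, a mesenchymal homeobox factor, with 159 ± 12.6 CPM in PUS10KO and 280 ± 27.6 CPM in control (log2 fold change -0.82, adjusted p = 0.0027). With the block 4 fell and 3 rose, where 19.9% of all genes fell and 19.1% rose. Srf and the myocardin-related factor gene Mrtfa were picked out after their values had been seen. Srf had 40.8 to 101 CPM in PUS10KO and 61.0 to 135 CPM in control (-0.51, adjusted p = 0.399, and 0.003 with the block). Mrtfa had 35.6 to 60.4 CPM in PUS10KO and 13.9 to 42.3 CPM in control (0.79, adjusted p = 0.161, and 0.00164 with the block). Their log2 fold changes thus had opposite signs.

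Of 20 genes of transforming growth factor beta (TGF-beta) input and response, 2 fell and 1 rose, and with the block 8 fell and 4 rose. Over all genes 7.11% fell and 5.9% rose, and with the block 19.9% fell and 19.1% rose. Tgfb3, a ligand, averaged 92.7 ± 24.2 CPM in PUS10KO and 492 ± 467 CPM in control (-2.41, adjusted p = 0.0376). Ltbp1, which holds the latent ligand in the matrix, averaged 279 ± 111 CPM in PUS10KO and 706 ± 168 CPM in control (-1.34, adjusted p = 0.0202). Tgfbr3, the co-receptor betaglycan, averaged 67.8 ± 7.39 CPM in PUS10KO and 19.9 ± 2.73 CPM in control (1.77, adjusted p = 0.000163). Tgfb3 lies on chromosome 12, where the median log2 fold change of all genes was -0.60.

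Markers of other contractile or embryonic cells were set beside the members. Beside the counts that follow, 7.11% of all genes fell and 5.9% rose. With the block 19.9% of all genes fell and 19.1% rose. Of 32 sarcomere genes of skeletal and heart muscle 7 could be tested, and their sum was 7.74 to 11.9 CPM in PUS10KO and 12.7 to 31.0 CPM in control. Neb, which encodes nebulin, fell (log2 fold change -2.05, adjusted p = 0.0323); limma voom called none of the 7, and with the block 3 fell. Des, the desmin gene, named after its values were seen, was at 0.796 to 1.30 CPM in PUS10KO and 0.927 to 1.80 CPM in control. Among 7 tested pericyte and mural cell markers 4 fell and 1 rose, and with the block 4 fell and 2 rose. They included Mcam with 15.6 ± 5.38 CPM in PUS10KO and 147 ± 96.1 CPM in control (-3.23, adjusted p = 0.00205), Cspg4 (-1.67, adjusted p = 0.0126) and Itga8 (-2.39, adjusted p = 0.00789), while Notch3 rose (2.21, adjusted p = 0.0249). The sum of this list was 294 to 360 CPM in PUS10KO and 477 to 803 CPM in control. Among 12 fibroblast markers 4 fell, Thy1, Fap, Vim and Col1a2. With the block 5 fell and 1 rose, Pdgfra, a growth factor receptor of fibroblasts, named after its values were seen. Pdgfra had 101 ± 21.1 CPM in PUS10KO and 49.8 ± 20.7 CPM in control (log2 fold change 1.02, adjusted p = 0.0605, and 0.00247 with the block). The sum of the 12 markers was 10900.0 to 17000.0 CPM in PUS10KO and 17100.0 to 21400.0 CPM in control. Krt19, a keratin of epithelia and mesothelium, fell too, with 16.3 ± 4.22 CPM in PUS10KO and 120 ± 68.2 CPM in control (-2.88, adjusted p = 0.00169). Msln, the other tested epithelial and mesothelial marker, did not pass without the block (log2 fold change -0.96, adjusted p = 0.0851). With the block Msln fell (adjusted p = 0.0143). Tested endothelial markers (2), macrophage markers (3) and adipocyte markers (2) passed in neither direction; their sums were at most 3.12, 6.67 and 23.5 CPM in PUS10KO and 4.92, 9.05 and 27.4 CPM in control. At an unadjusted p under 0.05, 1 macrophage and 1 adipocyte marker passed, and DESeq2 and limma voom called none of these 7. With the block Kdr (endothelial, adjusted p = 0.026), Lyz2 (macrophage, 0.0108) and Pparg (adipocyte, 0.0373) fell, and Fabp4 (adipocyte, 0.00207) rose. The part of these cell markers in the differences of the members was not tested.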

How the data were processed

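The deposited counts are whole numbers of reads by gene, not normalized, for 8 libraries made with a stranded total RNA kit and sequenced in paired-end mode, per the labels' protocols. Per the submitters' processing notes STAR 2.7.8a, DESeq2 and the mm10 build were used; the read counter, strand setting, annotation and gene filter are not stated in those sources, and the lowest total of a row was 27 counts. The authors also deposited a normalized table, whose values read as log2. In it the PUS10KO and control values of a gene had the same sum at every library number. Differences between numbers had thus been removed.

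Here counts were filtered with filterByExpr, scaled by TMM and compared between genotypes with edgeR 4.0.16 (quasi-likelihood test, robust, Benjamini-Hochberg adjustment over 11909 genes, threshold 0.05) in R 4.3.3, with genotype as the only term. The alternatives were limma 3.58.1 (voom), DESeq2 1.42.0, other size factors, no filter, each library left out and the library number as a block. After removal of the genotype means, PUS10KO libraries 1 to 4 correlated with the control library of their number at r = 0.681, 0.722, 0.633 and 0.687 (over genes, which are not independent replicates) and with any other at most at 0.303, 0.042, 0.582 and 0.503. The numbers were therefore taken to pair the libraries, least clearly for number 3 (r = 0.633 against 0.582). The fit with genotype only stayed the main one, and the paired fit is given beside each member call and list count that it changes. That pairing comes from the counts and the normalized table, not from the labels. The lowest chi-square per degree of freedom between libraries of a genotype was 17.93, more than counting noise alone. Each library was treated as 1 sample, though this value does not show that each came from a culture of its own. Gene positions came from GENCODE M21 (GRCm38), matched for 99.9% of rows.

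Members and lists were chosen with earlier results of these data known. Genes named were the members, Pus10, up to 4 called genes per list by lowest p (or the 2 most abundant where none was called), the defining markers of a cell type, and the 5 profiles nearest to Acta2. Genes of the lists without a row in the table were not analysed here. One of the gene lists is not reported here.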

Additional observations from a re-analysis of the deposited data

How the results depend on the processing

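Acta2 and Tagln fell under every normalization, filter and tool tried and in all fits that left out 1 library, and Acta1 in all of these except limma voom (adjusted p = 0.0569). With the library number as a replicate block 2273 genes rose and 2368 fell, of which 2 and 7 were members; the blocked fit of the authors' normalized values gave 2400.0 and 2405 genes, and again 2 and 7 members. By DESeq2 1146 genes rose and 1287 fell, among them 1 member that rose (Cnn1) and 5 that fell. Leaving out 1 library gave 492 to 638 genes that rose and 520.0 to 728 that fell (520.0 without PUS10KO 3 and 560.0 without PUS10KO 2), and 0 members that rose and 3 to 5 that fell, with 5 without control 4. Tpm2, called in none of these fits, had log2 fold changes from -0.38 (without control 4) to 0.017 (without control 2). Subtracting the median of its chromosome reversed the sign of no member's log2 fold change; that shift has no test of its own. The block changed the calls of 6 members, given with their values, and of none of the other 4. Counts were lowest for Acta1 in PUS10KO, with 16 to 43 per library. The SE of Acta1, 0.958 without the block, was the largest of the members, and was 0.482 with it. Its coefficient of variation was 119% in control, with 180 to 3096 counts per library, and 52.2% in PUS10KO. Causes of these shifts were not tested.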
